A study of Mus musculus with 12 samples.

Results

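The variable (V) segments of the T cell receptor alpha and beta chains were followed as a gene family in bulk RNA sequencing of sorted mouse T cells. Members were all symbols of the count table that begin with Trav or Trbv followed by a digit, which gave 163 of 48397 symbols, 128 of the alpha chain (Trav) and 35 of the beta chain (Trbv). The 12 libraries came in 3 groups of 4, and all animals were Kaede-Tg mice bearing implanted YUMMER1.7 tumors, a mouse melanoma line. Kaede is a protein whose fluorescence turns from green to red under light. Light was given to the tumors on day 11, and day 12 was the day of harvest. The Egressed group held red CD44+ CD8+ T cells of the lymph node that drains the tumor. The Tumor group held red CD44+ CD8+ T cells of the tumor itself. The Spleen group held CD44+ CD8+ T cells of the spleen, for which the labels give no selection by color and which served as the circulating population. Per the design text the tissues came from 4 mice, but no label ties a replicate number to a mouse. The deposited count columns carry the same non-consecutive numbers in all 3 groups, which may mark shared mice. The main tests treat the libraries as unpaired, so p-values measure the spread between libraries.

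An alpha beta T cell assembles its receptor genes during development, by joining 1 V segment to a joining (J) segment in the alpha chain, and 1 V, 1 diversity and 1 J segment in the beta chain. The V segment encodes the germline loops that mostly touch the presenting molecule, while the junction encodes the loop that mostly touches the peptide. Daughter cells keep the rearrangement of their parent, so a clone that divides raises the transcript share of its own V segments. The mouse Trav locus holds large duplicated blocks whose copies carry the letter d or n in their symbols (Trav14n-3 beside Trav14-3), and segments with dv in the symbol can also join to the delta chain.

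Sequences of 3 sets are shown so that the likeness of segments counted separately can be seen. They are the last 300 bases of the annotated coding sequences (GENCODE M21 on mm10, plus strand). Capitals mark bases that differ from the first of each set. Trbv13-1 was aligned with gaps, which are not shown, so its capitals do not mark every difference at the same position. Identity is given over the whole coding sequence. The Trbv13 set lies on chromosome 6, with Trbv13-2 at chr6:41121396-41121832, Trbv13-1 at chr6:41116007-41116468 and Trbv13-3 at chr6:41130147-41130585. Trbv13-1 was 87.9% and Trbv13-3 was 90.6% identical to Trbv13-2.
Trbv13-2: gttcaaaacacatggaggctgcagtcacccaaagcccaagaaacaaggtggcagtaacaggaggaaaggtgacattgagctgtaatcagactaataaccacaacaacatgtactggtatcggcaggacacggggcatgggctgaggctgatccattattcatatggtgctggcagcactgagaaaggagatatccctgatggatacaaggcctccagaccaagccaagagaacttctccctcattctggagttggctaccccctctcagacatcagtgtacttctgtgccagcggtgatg
Trbv13-1: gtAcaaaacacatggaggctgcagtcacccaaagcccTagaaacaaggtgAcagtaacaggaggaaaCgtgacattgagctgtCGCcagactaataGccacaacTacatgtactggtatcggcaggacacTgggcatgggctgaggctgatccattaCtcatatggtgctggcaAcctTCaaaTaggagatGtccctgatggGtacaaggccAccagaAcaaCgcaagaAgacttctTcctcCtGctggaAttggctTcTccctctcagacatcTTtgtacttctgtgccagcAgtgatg
Trbv13-3: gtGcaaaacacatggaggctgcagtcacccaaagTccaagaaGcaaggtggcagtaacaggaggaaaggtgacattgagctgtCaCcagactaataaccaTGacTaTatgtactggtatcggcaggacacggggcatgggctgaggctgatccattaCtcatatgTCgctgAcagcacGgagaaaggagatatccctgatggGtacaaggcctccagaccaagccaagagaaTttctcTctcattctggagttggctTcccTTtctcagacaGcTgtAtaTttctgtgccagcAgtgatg
Trav4-4-dv10 lies on chromosome 14 at chr14:53683647-53684177, and its relative Trav4d-4 at chr14:52990866-52991389 differed by 8 edits (97.6% identity) and was identical in its coding sequence to a further copy, Trav4n-4.
Trav4-4-dv10: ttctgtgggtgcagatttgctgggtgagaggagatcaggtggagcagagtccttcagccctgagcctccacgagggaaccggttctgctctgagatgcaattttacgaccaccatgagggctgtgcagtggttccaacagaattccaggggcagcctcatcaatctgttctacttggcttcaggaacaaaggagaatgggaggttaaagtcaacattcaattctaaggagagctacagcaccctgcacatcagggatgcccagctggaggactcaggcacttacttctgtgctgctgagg
Trav4d-4: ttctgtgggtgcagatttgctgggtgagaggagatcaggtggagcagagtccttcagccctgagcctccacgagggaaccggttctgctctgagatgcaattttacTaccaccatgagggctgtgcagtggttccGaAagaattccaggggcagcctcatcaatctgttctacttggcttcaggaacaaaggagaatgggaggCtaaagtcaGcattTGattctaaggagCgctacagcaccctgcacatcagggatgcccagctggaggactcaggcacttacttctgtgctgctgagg
The Trav14-3 set has 1 member in each block, Trav14n-3 at chr14:53370077-53370575, Trav14-3 at chr14:53763173-53763694 and Trav14d-3-dv8 at chr14:53078452-53079045. Trav14-3 differed from Trav14n-3 by 10 edits and Trav14d-3-dv8 by 12, and all 3 had counts.
Trav14n-3: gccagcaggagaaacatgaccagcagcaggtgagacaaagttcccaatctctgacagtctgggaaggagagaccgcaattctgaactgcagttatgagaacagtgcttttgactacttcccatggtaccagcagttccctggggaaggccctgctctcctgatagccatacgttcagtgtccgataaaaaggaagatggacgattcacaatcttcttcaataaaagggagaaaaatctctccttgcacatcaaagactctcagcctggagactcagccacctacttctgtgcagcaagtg
Trav14-3: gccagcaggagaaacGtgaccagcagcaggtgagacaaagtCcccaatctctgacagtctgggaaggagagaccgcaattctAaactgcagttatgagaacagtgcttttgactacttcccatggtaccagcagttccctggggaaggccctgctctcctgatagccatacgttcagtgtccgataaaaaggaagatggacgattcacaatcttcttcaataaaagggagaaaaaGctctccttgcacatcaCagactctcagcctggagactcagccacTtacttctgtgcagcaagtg
Trav14d-3-dv8: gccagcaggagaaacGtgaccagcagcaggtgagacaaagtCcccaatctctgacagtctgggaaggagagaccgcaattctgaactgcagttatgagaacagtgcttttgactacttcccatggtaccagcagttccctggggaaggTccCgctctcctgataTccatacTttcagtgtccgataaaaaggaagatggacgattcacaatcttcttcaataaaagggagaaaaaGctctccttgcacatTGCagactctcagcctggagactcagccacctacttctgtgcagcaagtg
These sets were chosen after their values were seen.

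The likeness of copies may bound what the counts can show. All 163 members were found in the annotation, between positions 52427928 and 53977678 of chromosome 14 for Trav and between 40891229 and 41558452 of chromosome 6 for Trbv. Of the 128 Trav symbols, 41 were at 0 in all 12 libraries, and of the 35 Trbv symbols, 4 were (Trbv8, Trbv11, Trbv25 and Trbv27, all annotated as pseudogenes). Of the 108 Trav symbols annotated as genes, 30 had another copy with an identical coding sequence, and 25 of these 30 were at 0 everywhere. The other 5 held 12 counts over all libraries together. The 78 Trav genes with no identical copy held 76777 counts, and 8 of them were at 0. How reads with several matches were treated is not given, and its part in these zeros was not tested. The usage given here is therefore that of the segments that held counts, and the usage of the identical copies is not known. The 47 Trav genes whose nearest relative was under 98% identical held 68.2% of all Trav counts, the 61 with a nearer relative held 28.4%, and 20 annotated pseudogenes held 3.32%. In the Trbv locus no gene had a relative at 98% identity or more, and the 22 annotated genes held 98.9% of the Trbv counts.

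Depth was 22.7 to 29.2 M counts per library in Egressed, 25.6 to 36.3 M in Tumor and 27.3 to 33.4 M in Spleen (M, mega). Trav segments took 5253 to 7958 counts in Egressed, 3926 to 10110 in Tumor and 6781 to 8279 in Spleen, and Trbv segments took 13160 to 18749, 10560 to 22079 and 13583 to 16027 in the same order. No molecular identifiers were used, so intervals and floors cover counting error only. A Trav segment at 0 in a library could still hold up to 0.0377 to 0.0571% of the Trav counts in Egressed, 0.0297 to 0.0764% in Tumor and 0.0362 to 0.0442% in Spleen (3 counts of the total). Markers of CD8 T cells summed to 4863 to 5182 TMM-scaled CPM (counts per M counts) in Egressed, 3418 to 6004 in Tumor and 5353 to 6275 in Spleen. In the Tumor group, 8 macrophage markers summed to 24.9 to 1478 CPM and 6 stromal markers to 30.8 to 4115 CPM, against at most 78.7 and 16.7 CPM in Egressed and 61.8 and 13.6 CPM in Spleen. Markers of CD4 and regulatory T cells summed to 70.4 to 106 CPM in Egressed, 156 to 275 CPM in Tumor and 34.6 to 50.7 CPM in Spleen. Of 6 markers of gamma delta T cells, 5 were in the table, and they summed to 16.5 to 121, 119 to 174 and 19.9 to 56.2 CPM in that order. The mean levels of single markers differed in pattern. Among the CD8 markers, Cd8b1 averaged 1370, 837 and 1740 CPM in Egressed, Tumor and Spleen. Cd8a averaged 976, 928 and 971 CPM and Cd44 95.3, 253 and 109 CPM. Ikzf2 averaged 61.7, 180 and 33.6 CPM in that order, while Cd4 averaged 1.35, 2.37 and 0.345 CPM and Foxp3 11.8, 10.9 and 4.73 CPM. Among the gamma delta markers Tcrg-C2 averaged 30.4, 82.3 and 16 CPM, while Trdc averaged 9.35, 6.10 and 8.29 CPM and Sox13 was at 0 in all Tumor libraries. For Tumor against Spleen, Cd8b1, Ikzf2 and Tcrg-C2 passed (edgeR quasi-likelihood test, adjusted p = 0.0104, 0.00212 and 0.0319). Ikzf2 also passed for Egressed against Tumor (edgeR adjusted p = 0.0452). The part of these markers in the V segment results was not tested.

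The summed V segment levels of both chains overlapped between the 3 groups. Trav segments together summed to 224 ± 24.5 CPM in Egressed, 195 ± 82.3 CPM in Tumor and 265 ± 13.5 CPM in Spleen (SD, n = 4 each), and Trbv segments to 561 ± 37.4, 468 ± 152 and 518 ± 30.8 CPM. In bulk samples, fewer T cells and less receptor RNA per cell cannot be told apart. Trav counts stood at 20.4 to 23.4% of the counts of the alpha constant gene Trac in Egressed, 19.2 to 21.7% in Tumor and 21.4 to 23.5% in Spleen. The beta constant genes Trbc1 and Trbc2 together held 1474 to 1623 CPM in Egressed, 799 to 1699 in Tumor and 1233 to 1276 in Spleen. All Egressed libraries thus lay above all Spleen libraries. Trbv counts stood at 32.4 to 39.5% of these in Egressed, 35.8 to 42.6% in Tumor and 39.0 to 43.1% in Spleen. Of 10 receptor and rearrangement genes, Trac, Trbc1 and Trbc2 (constant regions), Cd3d, Cd3e, Cd3g and Cd247 (signaling chains), Rag1, Rag2 (the recombinase) and Dntt (which adds junctional bases), none passed in any of the 3 comparisons (edgeR quasi-likelihood test, Benjamini-Hochberg adjustment over all tested genes). Rag2 was too low to be tested. The smallest adjusted p of the list was that of Cd3e, at 330 ± 38.6 CPM in Egressed and 382 ± 127 CPM in Tumor, against 654 ± 82.5 CPM in Spleen (n = 4 each, edgeR adjusted p = 0.0728 for Egressed and 0.0746 for Tumor).

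By the effective number of Trav segments, alpha chain usage was narrower in each Tumor and each Egressed library than in any Spleen library. It was uneven among the Egressed libraries. None of these differences passed after adjustment for the number of comparisons. Breadth is given as the effective number of segments, the number of equally used segments that would give the same Shannon entropy. The effective number of Trav segments was 47.4, 49.1, 31.9 and 32.5 in the Egressed libraries, 29.4, 35.7, 35.1 and 35.6 in the Tumor libraries, and 52.7, 50.3, 50.7 and 50.7 in the Spleen libraries. All Tumor and all Egressed libraries lay below all Spleen libraries. The Egressed libraries fell into a pair near the Spleen level and a pair within the Tumor range, so Egressed and Tumor overlapped.

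The mean effective number of Trav segments was 34.0 ± 3.03 in Tumor and 51.1 ± 1.08 in Spleen (SD, n = 4 each), a log2 difference of -0.59, or 0.662 times the Spleen value. In Egressed the mean was 40.2 ± 9.29, a log2 difference of -0.37 from Spleen and 0.22 from Tumor. In exact 2-sided permutation tests, Tumor against Spleen and Egressed against Spleen both gave p = 0.0286, the smallest that 70 divisions of 8 libraries allow, and Egressed against Tumor gave p = 0.343 (n = 4 each). After Benjamini-Hochberg adjustment over the 12 breadth and dominance comparisons these became 0.0571, 0.0571 and 0.374, so none passed 0.05, although the first 2 had groups that did not overlap.

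When the d and n copies of a segment were summed, the permutation p-values of both comparisons with Spleen stayed at 0.0286 (n = 4 each) and their adjusted values became 0.049, because 7 of the 12 comparisons then reached the smallest p. The log2 differences were then -0.43 for Tumor and -0.26 for Egressed. When all segments of a numbered subgroup were summed (Trav14-1, Trav14-2 and so on as Trav14), the differences were smaller, at -0.20 for Tumor against Spleen (exact permutation p = 0.0857, n = 4 each) and -0.05 for Egressed against Spleen (exact permutation p = 0.229, n = 4 each). The effective number of Trav subgroups was 13.6 ± 0.481 in Egressed, 12.3 ± 1.28 in Tumor and 14.0 ± 0.434 in Spleen, and the groups overlapped. With the inverse of the summed squared shares (inverse Simpson) as breadth, Egressed and Spleen overlapped, at 24.3 to 39.9 and 38.9 to 42.1. The log2 difference was -0.37 for Egressed against Spleen (exact permutation p = 0.0857, n = 4 each). It was -0.71 for Tumor against Spleen (exact permutation p = 0.0286, n = 4 each). 

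**Figure D1:**
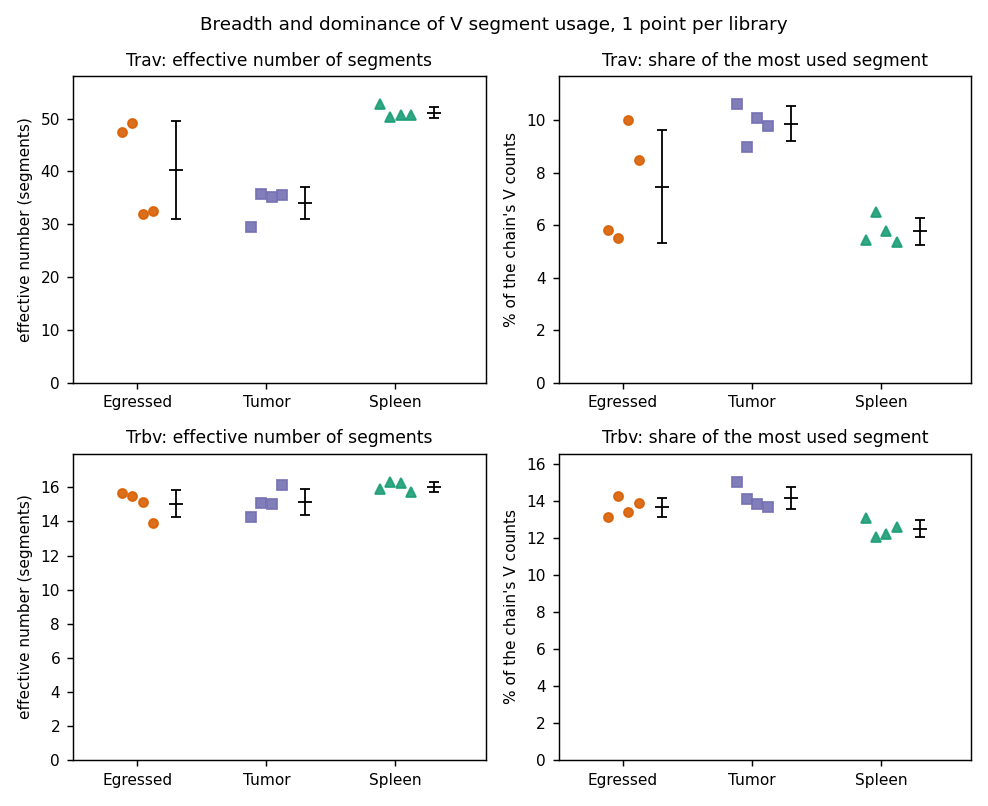
Effective number of V segments (left, in segments) and share of the most used segment (right, in % of the chain's V counts) for Trav (top) and Trbv (bottom); each point is 1 library and the bar beside each group is the mean ± SD of 4 libraries. Trav breadth in Tumor, 29.4 to 35.7, lies below Spleen, 50.3 to 52.7, while the Trbv values of the 3 groups lie between 13.9 and 16.3.

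The same order appeared in simpler counts. Trav segments with at least 1 count numbered 45 to 70 in Egressed libraries, 42 to 59 in Tumor libraries and 76 to 81 in Spleen libraries. The fewest segments that held 50% of the Trav counts numbered 10 to 15 in Egressed, 9 to 11 in Tumor and 15 to 17 in Spleen. Segments with a share of 1% or more numbered 32 to 38 in Egressed, 30 to 34 in Tumor and 34 to 39 in Spleen, so the groups differed less in the number of commonly used segments than in the number of rare ones. The summed share of annotated Trav pseudogenes was 1.20 to 4.68% in Egressed, 2.25 to 9.0% in Tumor and 1.97 to 3.14% in Spleen.

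**Figure D2:**
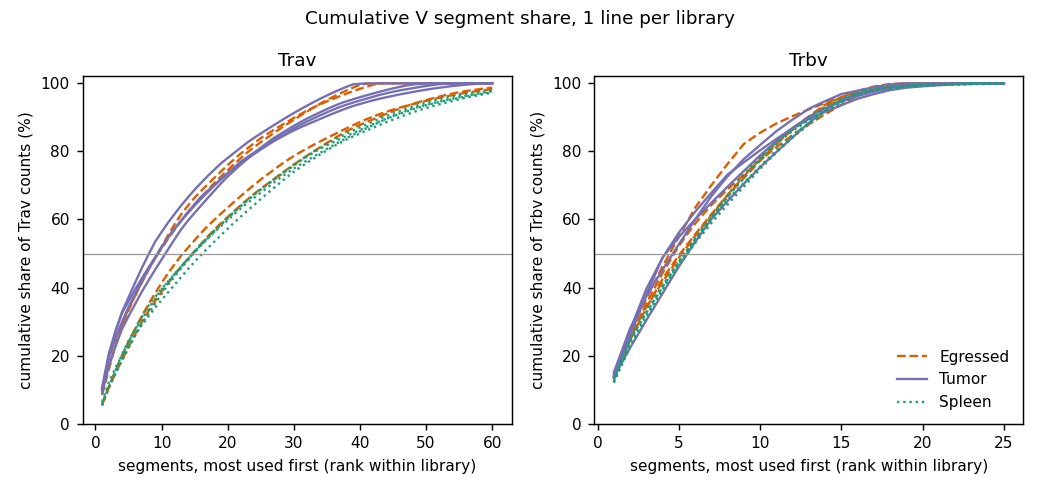
Cumulative share of the chain's V counts (%) against the number of segments, most used first, with 1 line per library. In Trav (left), 9 to 11 segments reach 50% in Tumor libraries against 15 to 17 in Spleen libraries, and the 4 Egressed lines run in 2 pairs; in Trbv (right), 5 or 6 segments reach 50% in every library.

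The leading alpha segment took a larger share in each Tumor library than in any Spleen library, a difference that did not pass after adjustment. The share of the most used Trav segment was 5.82, 5.53, 10.0 and 8.49% in Egressed, 10.6, 8.98, 10.1 and 9.79% in Tumor, and 5.45, 6.48, 5.79 and 5.35% in Spleen. All Tumor libraries lay above all Spleen libraries, and Egressed overlapped with both. The means were 9.86 ± 0.676% in Tumor and 5.77 ± 0.512% in Spleen, a difference of 4.09 percentage points (exact permutation p = 0.0286, adjusted p = 0.0571, n = 4 each). Egressed averaged 7.46 ± 2.16%, which was 2.40 points below Tumor (exact permutation p = 0.0857, adjusted p = 0.129, n = 4 each) and 1.70 points above Spleen (exact permutation p = 0.2, adjusted p = 0.267, n = 4 each). With d and n copies summed, the Egressed value was 3.09 points below Tumor and the 2 groups did not overlap (exact permutation p = 0.0286, adjusted p = 0.049, n = 4 each). With subgroups as units, Egressed lay 0.14 points above Tumor (exact permutation p = 0.971, n = 4 each) and Tumor 1.64 points above Spleen (exact permutation p = 0.114, n = 4 each).

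The identity of the leading segment varied. Trav12-2 led in 2 of 4 Egressed libraries and in 3 of 4 Spleen libraries, and Trav4-4-dv10 led in 2 of 4 Tumor libraries. The other leading segments were Trav19 and Trav13-4-dv7 in Egressed, Trav14-1 and Trav14n-3 in Tumor and Trav13-1 in Spleen. Trav13-4-dv7, Trav14-1 and Trav14n-3 are named after their values were seen. Shares are of raw counts; when counts were first divided by transcript length (155 to 595 bases for Trav), the effective number of Trav segments differed by -0.62 for Tumor and -0.38 for Egressed against Spleen on the log2 scale.

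Beta chain usage was of nearly the same breadth in all groups. The effective number of Trbv segments was 15.7, 15.5, 15.2 and 13.9 in Egressed, 14.3, 15.1, 15.0 and 16.1 in Tumor, and 15.9, 16.3, 16.3 and 15.7 in Spleen. All Egressed libraries lay below all Spleen libraries, by a small margin, and Tumor overlapped with both. The means were 15.1 ± 0.792 in Egressed, 15.1 ± 0.749 in Tumor and 16.1 ± 0.293 in Spleen (SD, n = 4 each). The log2 difference from Spleen was -0.0941 for Egressed (exact permutation p = 0.0286, adjusted p = 0.0571, n = 4 each) and -0.0862 for Tumor (exact permutation p = 0.0857, adjusted p = 0.129, n = 4 each). Egressed and Tumor differed by less than the spread between libraries (exact permutation p = 0.943, n = 4 each). Trbv segments with a count numbered 20 to 24 in Egressed, 19 to 25 in Tumor and 25 to 29 in Spleen.

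The leading beta segment held a slightly larger share in red cells, which did not pass after adjustment. The share of the most used Trbv segment was 13.1, 14.2, 13.4 and 13.9% in Egressed, 15.0, 14.1, 13.8 and 13.7% in Tumor, and 13.1, 12.1, 12.2 and 12.6% in Spleen. Egressed and Tumor libraries all lay above the Spleen libraries, the closest pair of libraries being 13.12% in Egressed and 13.09% in Spleen. The differences from Spleen were 1.18 points for Egressed and 1.67 points for Tumor (exact permutation p = 0.0286 and adjusted p = 0.0571 for both, n = 4 each). Egressed lay 0.495 points from Tumor, on the lower side (exact permutation p = 0.286, n = 4 each). The leading segment was Trbv12-2 in 3 Egressed, 3 Tumor and 1 of the Spleen libraries, and Trbv16 in the others.

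Trav breadth moved with the number of genes detected in a library. Symbols with a count numbered 24310, 25916, 14927 and 15251 in the Egressed libraries, 15296, 21306, 20560 and 20753 in the Tumor libraries, and 30713, 31678, 30658 and 32165 in the Spleen libraries. All Spleen libraries lay above all others in this number, so site and symbols detected cannot be told apart in the comparisons with Spleen. The pair of Egressed libraries with the fewest symbols was the pair with the lower Trav breadth, and the Tumor library with the fewest symbols had the lowest Trav breadth of its group. Without these 3 libraries, chosen after the data were seen, the Trav effective number of Egressed lay -0.08 from Spleen on the log2 scale and its top share -0.0961 points from Spleen, while Tumor lay -0.53 from Spleen in effective number and 3.84 points above it in top share (values with no adjusted p; 3 Tumor against 4 Spleen libraries cannot give an exact permutation p under 0.0571, and 2 Egressed against 4 Spleen libraries none under 0.133). The move of Egressed toward Spleen was fixed by this choice, since the Egressed pair left out had the lower Trav breadth and the higher top shares. With every library thinned to 3926 Trav counts, the Trav differences from Spleen were -0.36 for Egressed and -0.58 for Tumor. How many cells entered each library is not given in the sources used here, and its part in breadth was not tested.

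**Figure D3:**
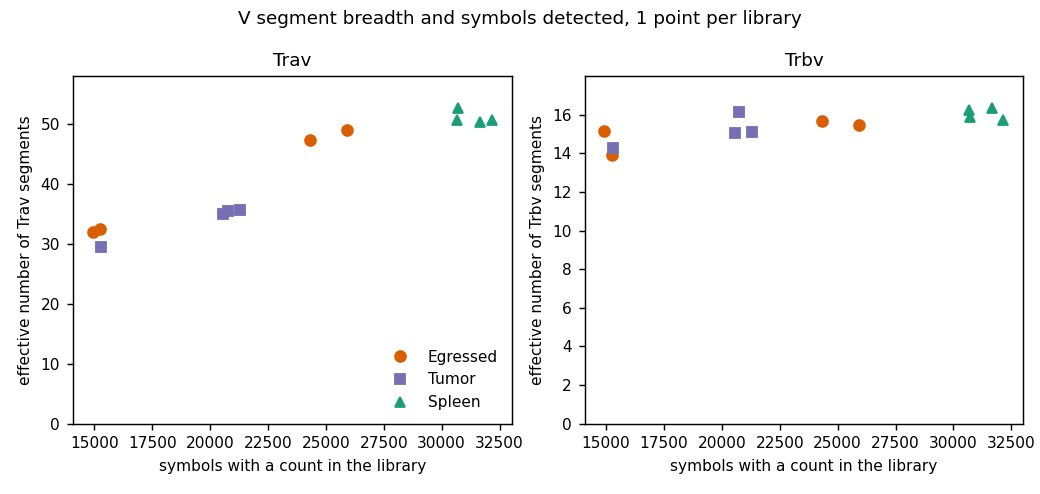
Effective number of Trav (left) and Trbv (right) segments against the number of symbols with a count in the library, 1 point per library. Trav breadth in Egressed is 31.9 and 32.5 at 14927 and 15251 symbols and 47.4 and 49.1 at 24310 and 25916 symbols, while the 3 Tumor libraries at 20560 to 21306 symbols hold 35.1 to 35.7.

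Shares varied more between Egressed or Tumor libraries than between Spleen libraries. Among the 38 Trav segments with a mean share of at least 1% in Spleen, the median coefficient of variation (SD over mean) of a segment's share across 4 libraries was 68.4% in Egressed, 76.8% in Tumor and 16.9% in Spleen. Counting error alone would give 9.48, 9.66 and 8.34% in that order. A choice by the Spleen mean favors segments present in Spleen. The 37 Trav segments with a mean share of at least 1% over all 12 libraries, a choice made after the data were seen, had median coefficients of 68.0% in Egressed, 73.6% in Tumor and 16.7% in Spleen. Of the 38 segments, 13 were at 0 in at least 1 Egressed library and 15 in at least 1 Tumor library. Trav3-1 was at 0 in 2 or more Egressed libraries, and Trav5-1, Trav7d-4, Trav10, Trav14-1 and Trav16d-dv11 were at 0 in 2 or more Tumor libraries. The 17 Trbv segments above the same cut had median coefficients of 30.7% in Egressed, 45.6% in Tumor and 8.42% in Spleen, against 3.77, 3.83 and 3.52% from counting alone. Trbv31, which lies in the opposite orientation at the far end of the locus, was at 0 in 1 Egressed library, and Trbv26 was at 0 in 1 Tumor library.

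**Figure D4:**
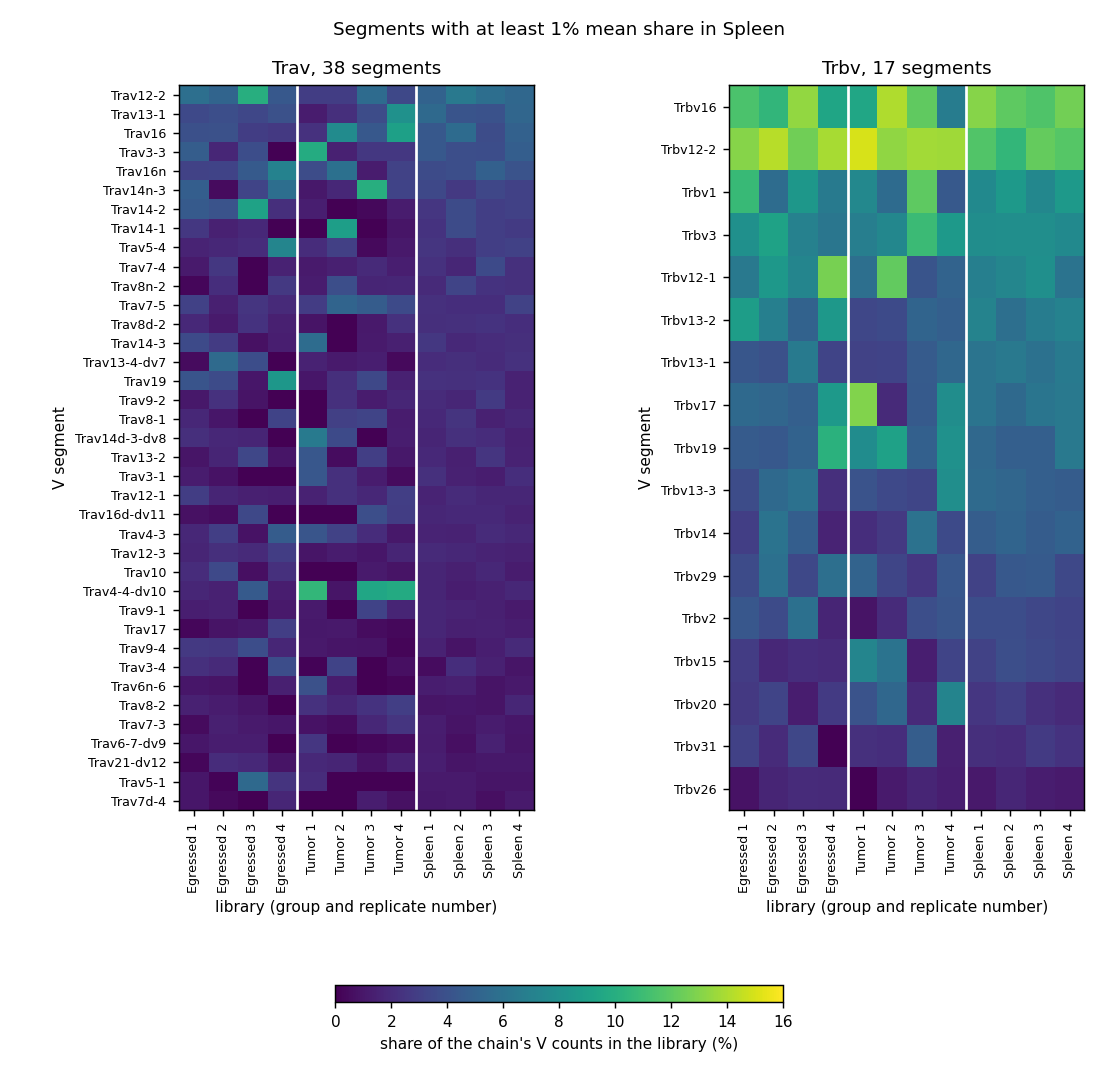
Share of the chain's V counts in each library (color, %) for the 38 Trav (left) and 17 Trbv (right) segments with a mean share of at least 1% in Spleen, most used in Spleen at the top, columns grouped as Egressed, Tumor and Spleen. Spleen columns look alike within the group, whereas Egressed and Tumor columns hold single bright segments, such as Trav4-4-dv10 at 9.47 to 10.6% in 3 Tumor libraries, and empty cells.

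Whole profiles gave the same picture. The distance between 2 libraries was taken as the part of the chain's counts that would have to be moved to another segment to make the profiles equal (0, same usage; 1, no segment shared). For Trav the median distance was 0.413 between Egressed libraries, 0.493 between Tumor libraries and 0.132 between Spleen libraries, 6 pairs each. It was 0.47 between an Egressed and a Tumor library, 0.308 between Egressed and Spleen and 0.37 between Tumor and Spleen, 16 pairs each. By these medians, an Egressed or Tumor library lay nearer to a Spleen library than to another library of its own group. A distance also grows with the spread within both groups, which was smallest in Spleen. The medians therefore do not rank the groups by likeness of usage. For Trbv the medians were 0.161 within Egressed, 0.224 within Tumor and 0.0557 within Spleen, and 0.205, 0.106 and 0.188 for Egressed to Tumor, Egressed to Spleen and Tumor to Spleen.

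Whether an Egressed library resembled the Tumor library of the same replicate number was tested over both chains. The mean distance was 0.334 for the 4 same-numbered pairs (0.302 to 0.371) and 0.332 for the other 12 pairs (0.259 to 0.391). The difference of 0.0029 gave p = 0.583 in an exact 1-sided permutation test over the 24 pairings, so same-numbered libraries were not detectably nearer. Since no label says that a shared number marks a shared mouse, this leaves unmeasured whether red cells of node and tumor in 1 animal used the same segments.

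Tested one by one, no V segment passed the threshold in any comparison. Of the 163 segments, 92 passed the filter on low counts (68 Trav and 24 Trbv), and 0 of 92 passed at an edgeR adjusted p of 0.05 in each comparison. The shares of all 21457 tested genes that passed were 1.1% for Egressed against Tumor, 0.368% for Egressed against Spleen and 2.41% for Tumor against Spleen. At an unadjusted edgeR p under 0.05 there were 7 segments (7.61%) for Egressed against Tumor, 2 (2.17%) for Egressed against Spleen and 6 (6.52%) for Tumor against Spleen, against 17.4, 8.79 and 16.7% of all genes. DESeq2 called 2, 0 and 2 segments in these comparisons, Trbv13-2 and Trav13d-4 both times, and limma-voom called 0, 0 and 2, the 2 being Trav13d-4 and Trav6-1. The shares of all genes with an adjusted p that DESeq2 called were 9.33, 3.87 and 8.63% in the same order, and those that limma-voom called were 1.46, 0.974 and 5.58%, so the segments' shares (at most 2.22%) lay below the background wherever any were called. The median log2 fold change over the tested Trav segments was 0.38, -0.28 and -0.67 for these comparisons, against 0.00366, -0.13 and -0.15 over all genes, and over the tested Trbv segments 0.20, 0.08 and -0.09.

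Trbv13-2 came closest to the threshold, with its lowest shares in Tumor libraries. It is named after its values were seen, as are its neighbors Trbv13-1 and Trbv13-3. Its share of Trbv counts was 8.88, 6.92, 5.04 and 8.52% in Egressed, 3.42, 3.60, 5.16 and 4.85% in Tumor, and 7.18, 5.86, 6.71 and 7.09% in Spleen. All Tumor libraries lay below all Spleen libraries, and 1 Egressed library reached into the Tumor range. The log2 fold change was 1.09 ± 0.29 for Egressed against Tumor (edgeR adjusted p = 0.0961) and -0.86 ± 0.289 for Tumor against Spleen (edgeR adjusted p = 0.14), each ± SE. DESeq2 gave adjusted p-values of 3.5e-05 and 0.0228 for these 2 differences, and an edgeR fit with the Trbv total as the library size, which tests the share instead of the level, gave 0.205 and 0.316. Of the neighbors whose sequences stand above, Trbv13-1 averaged 4.52 ± 1.39% in Egressed, 4.08 ± 1.07% in Tumor and 6.28 ± 0.253% in Spleen, and Trbv13-3 averaged 4.32 ± 1.75, 4.70 ± 2.15 and 5.07 ± 0.394% (SD, n = 4 each). For Trbv13-1, too, all Tumor libraries lay below all Spleen libraries (log2 fold change -0.84 ± 0.354, edgeR adjusted p = 0.241), while the groups overlapped for Trbv13-3.

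Trav4-4-dv10 was the most used Trav segment of the Tumor group. Its share of Trav counts was 1.74, 1.46, 4.55 and 1.29% in Egressed, 10.6, 0.933, 9.47 and 9.79% in Tumor, and 1.63, 1.27, 1.45 and 1.76% in Spleen. In 3 of 4 Tumor libraries it was far above every library of the other groups, and in the remaining Tumor library it was below all of them. The log2 fold change was 1.92 ± 0.851 for Tumor against Spleen (edgeR adjusted p = 0.272) and -1.52 ± 0.841 for Egressed against Tumor (edgeR adjusted p = 0.409), neither of which passed. Leaving out 1 library gave 1.304 to 2.282 for Tumor against Spleen, the lowest without replicate 1 of Tumor. Per transcript length it ranked 13 among Trav segments in Egressed, 1 in Tumor and 23 in Spleen by mean share. Its relatives Trav4d-4 and Trav4n-4, which are identical to each other, were at 0 in all libraries.

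Summed over the 9 symbols of its subgroup, Trav4 held 4.39, 4.90, 5.94 and 5.92% of Trav counts in Egressed, 14.8, 7.19, 11.8 and 12.4% in Tumor, and 3.77, 3.35, 3.73 and 4.29% in Spleen. The 3 groups did not overlap, with Tumor highest and Spleen lowest. This subgroup was singled out after its values were seen, so no test is given. In the Tumor library where Trav4-4-dv10 was low, Trav4-1 and Trav4-3 made up most of the subgroup, at 2.52 and 3.17%. Trav4-1 is annotated as a pseudogene and was at 0 in 2 Tumor libraries. Its share in this library exceeds the gap to the highest Egressed library, so the lack of overlap between Tumor and Egressed depends on counting it.

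The segments most used in Egressed were Trav12-2, Trav14-2, Trav16n and Trav19. Trav12-2 took 5.82, 5.16, 10.0 and 4.38% of Trav counts in Egressed, 2.93, 2.89, 5.60 and 3.45% in Tumor, and 5.01, 6.48, 5.79 and 5.35% in Spleen. It was lower in 3 of 4 Tumor libraries than in any library of the other groups, with a log2 fold change of -1.16 ± 0.522 for Tumor against Spleen (edgeR adjusted p = 0.285). Trav14-2 took 4.55, 4.07, 9.24 and 2.15% in Egressed, 1.34, 0, 0.331 and 1.24% in Tumor, and 2.55, 3.66, 2.98 and 3.07% in Spleen. All Tumor libraries lay below all others, and the log2 fold change for Egressed against Tumor was 2.87 ± 1.25 (edgeR adjusted p = 0.256). It was 2.24 to 3.95 when 1 library was left out, and 4.38 with limma-voom. Trav16n averaged 4.49 ± 1.83% in Egressed, 3.51 ± 1.93% in Tumor and 4.12 ± 0.547% in Spleen. Trav19, the only member of its subgroup, averaged 4.32 ± 3.11, 2.00 ± 1.09 and 2.09 ± 0.395% in the same order. Neither passed in any comparison (edgeR adjusted p of 0.345 or more).

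**Figure D5:**
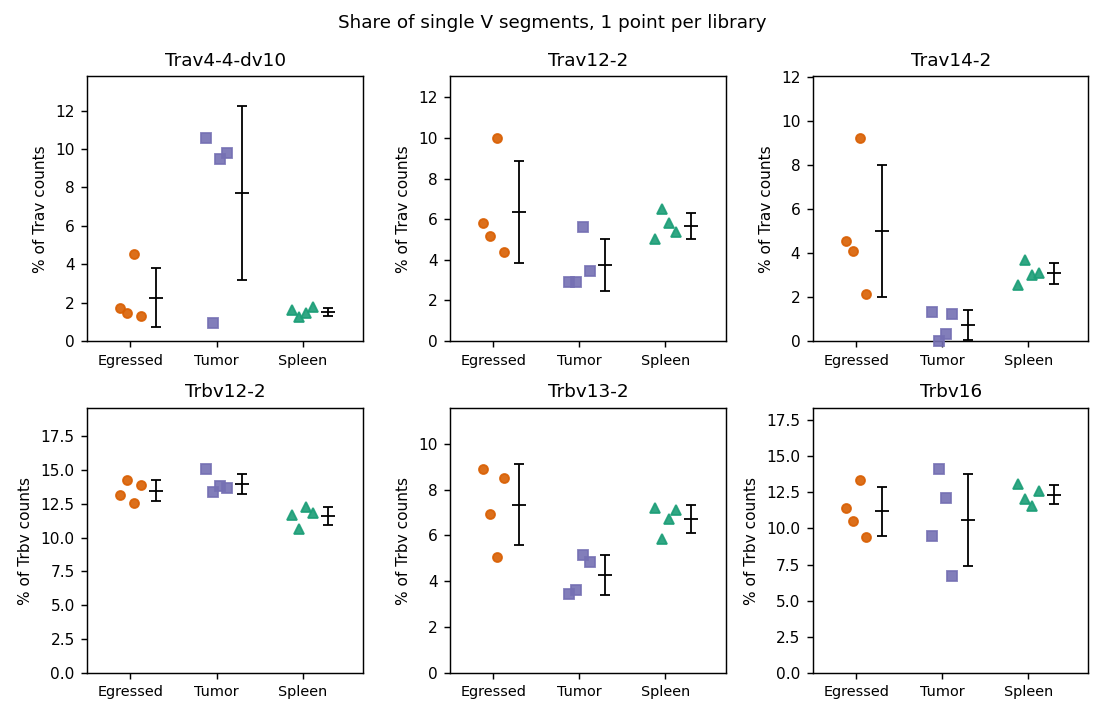
Share of 6 V segments, in % of the counts of their chain, with 1 point per library and the mean ± SD of each group of 4. Trav14-2 and Trbv13-2 are lower in all Tumor libraries than in all Spleen libraries, Trav4-4-dv10 is high in 3 of 4 Tumor libraries, and Trbv12-2 is higher in all Egressed and Tumor libraries than in all Spleen libraries.

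Among the other segments most used in Tumor or Spleen, Trav7-5 averaged 2.21 ± 0.733% in Egressed, 4.06 ± 1.05% in Tumor and 2.40 ± 0.526% in Spleen, with 1 Tumor library inside the range of the other groups. Trav16, which is 98.6% identical to Trav16n so that reads may be split between them, averaged 3.36 ± 0.692, 5.88 ± 3.09 and 4.68 ± 0.798%. Trav3-3 averaged 2.56 ± 2.10, 4.13 ± 3.86 and 4.21 ± 0.463%, with 1 Tumor library at 9.87% and the others at 1.48 to 2.60%. Trav13-1 averaged 3.68 ± 0.250, 3.81 ± 3.05 and 4.73 ± 0.737%, and all Egressed libraries lay below all Spleen libraries. None of these differences passed (edgeR adjusted p of 0.457 or more). Per transcript length, Trav13-1 ranked 3 in Egressed, 4 in Tumor and 1 in Spleen.

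In the beta chain the same few segments led everywhere. Trbv12-2 took 13.1, 14.2, 12.5 and 13.9% of Trbv counts in Egressed, 15.0, 13.4, 13.8 and 13.7% in Tumor, and 11.6, 10.6, 12.2 and 11.8% in Spleen. Egressed and Tumor libraries all lay above the Spleen libraries. As a level, its log2 fold change was 0.33 ± 0.245 for Egressed and 0.14 ± 0.245 for Tumor against Spleen (edgeR adjusted p = 1 and 0.933), and without replicate 1 of Tumor the second was -0.09. Trbv16 averaged 11.2 ± 1.69% in Egressed, 10.6 ± 3.22% in Tumor and 12.3 ± 0.657% in Spleen. Per transcript length, Trbv12-2 and Trbv16 held ranks 1 and 2 in Egressed and Tumor and ranks 2 and 1 in Spleen.

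Trbv12-1 averaged 8.75 ± 2.77% in Egressed, 6.82 ± 3.62% in Tumor and 7.09 ± 0.79% in Spleen. Trbv1, at the opposite end of the locus from Trbv31, averaged 7.89 ± 2.27, 7.38 ± 3.33 and 8.07 ± 0.685%. Trbv3 averaged 7.65 ± 1.27, 8.43 ± 1.79 and 7.81 ± 0.164%. Trbv19 averaged 6.07 ± 2.78, 7.48 ± 1.83 and 5.38 ± 0.769%. Each of the 4 overlapped between all groups in its shares, and what set the groups apart was the spread, which in Spleen was the smallest of the 3 for each of them.

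Segments used by invariant T cells were looked at separately. Trav1, which mucosal-associated invariant T cells use, held 1.65, 0.85, 0.754 and 0% of Trav counts in Egressed, 0, 1.70, 0.56 and 0.823% in Tumor and 1.17, 0.858, 0.713 and 1.00% in Spleen. The 3 ranges overlapped, and only red cells included a library at 0. Trav11, which natural killer T cells use, was at 0 in all Egressed and Tumor libraries and at 0.0251% in 1 Spleen library, and its copy Trav11d was at 0 in all. These 2 are identical in coding sequence, so reads that match both may not have been counted.

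The 3 genomic kinds of Trav symbol kept similar totals. Symbols with the letter d held 7.93 ± 3.49% of Trav counts in Egressed, 9.15 ± 2.85% in Tumor and 10.6 ± 0.588% in Spleen. Symbols with the letter n held 16.4 ± 5.53, 17.0 ± 4.23 and 15.0 ± 0.30%, and symbols with neither held 75.7 ± 2.87, 73.9 ± 2.07 and 74.4 ± 0.841% (SD, n = 4 each).

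Joining segments, which the choice of members did not use, gave a second view of the same receptors. The effective number of Traj segments was 23.3, 34.1, 28.5 and 24.3 in Egressed, 10.9, 25.6, 26.9 and 29.6 in Tumor, and 32.3, 33.9, 29.6 and 29.1 in Spleen, over 1153 to 4153 counts per library. In 1 Tumor library a single Traj segment held 22.7% of the Traj counts, and this was the library with the lowest Trav breadth. In Egressed the orders differed, since the library with the lowest Traj breadth had a Trav breadth of 47.4 and the one with the lowest Trav breadth, 31.9, had a Traj breadth of 28.5. Trbj breadth was 10.7 to 12.3 in Egressed, 10.4 to 12.5 in Tumor and 10.9 to 11.2 in Spleen, of 14 symbols.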

How the data were processed

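RNA was made into libraries with a Takara SMART-Seq v4 ultra-low-input kit, per the labels' protocols. STAR 2.7.3a, Cufflinks 2.2.1, Bowtie2 2.5.1, cutadapt 2.5 and the build mm10 are named in the submitters' processing notes. What each tool did, which counter and annotation were used and how reads with several matches were treated is not given in the sources used here. Raw counts per symbol, as deposited, were analysed. The authors also deposited log2 values, which equal log2(count / size factor + 1) per the file values and served as a check only. Of 48397 symbols, 27 had been turned into dates.

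Shares are a segment's counts over all Trav or all Trbv counts of a library. Breadth and top share were compared with exact permutation tests (2-sided, scipy 1.17.1), with Benjamini-Hochberg adjustment over 12 comparisons. Genes were tested with edgeR 4.0.16 (filterByExpr, TMM, quasi-likelihood, 1 model of 3 groups, adjusted p threshold 0.05), and DESeq2 1.42.0 and limma 3.58.1 were alternatives. The common biological coefficient of variation was 1.21. The edgeR script was tested on simulated data with a smaller spread than that of these libraries. That test therefore does not show which changes could be found here. Identity between segments and all positions are from GENCODE M21. A share's 95% Wilson interval was at most 0.956 points to either side for the named Trav and 0.671 points for the named Trbv segments, for counting error only. No pair of libraries of a group agreed within sampling noise (6 pairs per group, lowest chi-square per degree of freedom 19.7).

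Named segments are the 4 with the highest mean share per chain and group, any that passed edgeR, and Trav1, Trav11 and Trav11d; others are said to be chosen later. Members, lists and tests were chosen with earlier results of these data known. Same-numbered libraries were not treated as pairs, since no label ties a number to a mouse. Their deviations from group means correlated at -0.0904 to 0.0837 over all genes, and 6 of 24 best matches were to the own number. These values cannot decide whether libraries share a mouse, because differences between libraries in symbols detected also enter the deviations.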

Additional observations from a re-analysis of the deposited data

Results flagged for a closer look

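Of 66 groups of 4 values examined (the breadth measures and the shares of the named segments in each group), 8 held a library that stood apart from the other 3 by more than Dixon's 95% critical value. Chance gives about 1 such group in 20. No explanation was tested for any of them.

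Breadth stood apart in 2 groups. The effective number of Trav segments was 29.4 in 1 Tumor library, against 35.1 to 35.7 in the others, and 52.7 in 1 Spleen library, against 50.3 to 50.7.

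The shares of 5 segments stood apart in 6 groups. Trav4-4-dv10 was at 4.55% in 1 Egressed library, against 1.29 to 1.74% in the others, and at 0.933% in 1 Tumor library, against 9.47 to 10.6%. Trav3-3 was at 9.87% in 1 Tumor library, against 1.48 to 2.60%. Trbv19 was at 10.2% in 1 Egressed library, against 4.42 to 5.05%. Trav7-5 was at 3.19% in 1 Spleen library, against 2.06 to 2.25%. Trav11 was at 0.0251% in 1 Spleen library and at 0 in the others, a share that rests on 2 counts.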

How the results depend on the processing

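With d and n copies summed, 7 comparisons passed at an adjusted p of 0.049: Trav breadth (-0.26 Egressed and -0.43 Tumor against Spleen, log2), Trav top share (-3.09 points Egressed against Tumor, 3.12 Tumor against Spleen), Trbv breadth (-0.0941 Egressed against Spleen) and Trbv top share (1.18 Egressed and 1.67 Tumor against Spleen). Trbv symbols have no d or n copies, so their values and p-values were those of the main setting. Trav top share, Egressed against Tumor, newly reached the smallest exact permutation p, 0.0286. For the others the p-value was unchanged, and the adjusted p fell from 0.0571 for that reason alone. Egressed against Tumor turned round for top shares with subgroups as units (0.14 points Trav, 1.13 Trbv) and for Trbv breadth without pseudogenes (0.00914) and as inverse Simpson (0.0281); none of these main differences had passed. Without the 3 libraries with the fewest symbols, Egressed against Spleen was -0.0827 (Trav breadth) and -0.0961 points (Trav top share), and Trbv12-2 in Tumor against Spleen was -0.11 (-0.0863 to 0.263 leaving out 1 library, the lowest without replicate 1 of Tumor). The same-numbered distance turned to -0.00746 with Jensen-Shannon distance and -0.00358 with Trbv alone. The Trav values of Egressed without the 3 libraries follow from that choice, and for the other changes the cause was not tested.

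Genes called (235, 79 and 518 for Egressed against Tumor, Egressed against Spleen and Tumor against Spleen) became 1928, 518 and 1783 with DESeq2. Limma-voom gave 209 and 1197 for the last 2 comparisons, and no filter gave 41 and 342. Without the 3 libraries the first and last gave 442 and 2347. Segments called, 0 in edgeR, were 2 for Egressed against Tumor and 2 for Tumor against Spleen with DESeq2, and 2 for Tumor against Spleen with limma-voom. Without Tumor replicates 3 and 4 they were 1 (Trav10) and 2 (Trav10, Trav7n-4), and without the 3 libraries 2 (Trav5-1, Trav6d-5) and 4 (these, Trav13d-4 and Trbv13-2). Leaving out 1 library at a time gave 95 to 487, 5 to 123 and 223 to 645 genes and 0 to 1, 0 and 0 to 1 segments, the 1 being Trav5-1 without replicate 1 of Tumor; it is listed at 0 in the other Tumor libraries.

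Leaving out 1 library gave log2 differences in Trav breadth of 0.11 to 0.32 (Egressed against Tumor), -0.48 to -0.27 (Egressed against Spleen) and -0.62 to -0.53 (Tumor against Spleen), in Trbv breadth -0.04 to 0.03, -0.11 to -0.06 and -0.12 to -0.06. Trav top shares differed by -3.25 to -1.75, 0.844 to 2.34 and 3.84 to 4.39 points, Trbv top shares by -0.69 to -0.201, 0.984 to 1.38 and 1.38 to 1.88 points, and the same-numbered distance by -0.0075 to 0.0158. With a replicate block edgeR called 78, 23 and 295 genes and 0 segments, and the smallest p that a sign-flip test of 4 pairs can give, 0.125, was reached by 7 of 12 comparisons; the numbers are not known to pair the libraries. A result kept its direction and side of the threshold, or moved by less than the spread, in 286 pairs of result and setting. In another 47 pairs it moved further, in 6 it turned round and in 7 it newly passed the threshold. The 286 pairs include the 12 sign-flip comparisons, whose difference equals the main one by construction. None of the breadth and dominance comparisons had passed in the main setting, so staying on that side of the threshold says little about them.

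Identical Trav copies, 3926 to 10110 Trav counts per library and 4 libraries per group limit these results.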
